A study of Mus musculus with 2 samples.

Results

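The genes described here are 8 genes of myelin and of Schwann cells, measured in mouse gastrocnemius, the large muscle of the calf. They are Mbp, Pmp22, Prx, Drp2, Mag and Cadm4, which encode parts of the myelin sheath, and Sox10 and Egr2, which encode transcription factors of the Schwann cell lineage. They were selected by name from earlier results of the same 2 libraries, in which such genes were higher in one animal than in the other. The direction of that difference was therefore used in the choice, and the differences below are descriptions with no test. The deposited gene tables held 55536 genes, of which 11125 had a mean expected count of at least 50 over the 2 libraries, the minimum used for comparisons; 5 of the 8 genes passed it (Mbp, Pmp22, Prx, Drp2 and Cadm4).

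Myelin is membrane that a glial cell wraps around an axon, and in peripheral nerve the Schwann cell makes it. A nerve that enters a muscle carries myelinated motor and sensory axons, so a sample of whole muscle can hold RNA from Schwann cells along the nerve branches and at the nerve endings. SOX10 is needed for the Schwann cell lineage at all stages. EGR2, also called KROX20, acts together with SOX10 to turn on and maintain the genes of the myelin sheath. Changes in the human counterparts of Pmp22, Prx and Egr2 cause inherited neuropathies of the Charcot-Marie-Tooth group.

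Total RNA was sequenced from 2 adult female mice aged 8 to 10 months, 1 library per animal. Both were B6CASTF1/J, a first-generation hybrid of the B6 and CAST strains. The libraries were made from 300 ng of RNA with a strand-specific kit after reduction of ribosomal RNA, and ERCC spike-in RNAs were added. Animal 1 of the labels is replicate 1 and animal 3 is replicate 2. One donor identifier is attached to both, while their tissue samples are separate and their animal numbers differ. No treatment is named, so there is 1 group and no comparison between conditions.

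Replicate 1 held 42605802 expected counts over genes and replicate 2 held 43301418. A gene with no reads could still have reached 3 counts, which is 0.0704 CPM in the first library and 0.0693 CPM in the second. Such floors and all counting intervals below cover counting error only, because reads carried no molecular identifiers. For transcripts and annotated starts they also leave out error in the division of reads among transcripts. Over 11115 genes the libraries differed by far more than counting error (chi-square per degree of freedom 28.9), and the common biological coefficient of variation was 0.124. After scaling, the median log2 ratio of replicate 2 over replicate 1 over all tested genes was 0.00406. Nuclear protein-coding genes took 48.2% of all TPM in replicate 1 and 43.3% in replicate 2; the part of this difference in the TPM values below was not tested. The log2 ratios were computed from TMM-scaled counts and not from TPM. With spike-in scaling the median log2 ratio over all tested genes was -0.124.

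The label of a peripheral glial gene set was set beside other markers. S100b, a calcium-binding protein of Schwann cells, had 61 counts in replicate 1 and 22 in replicate 2. Other genes listed with it for the Schwann lineage were mostly less apart. Ngfr had 12 and 11 counts, Pou3f1 14 and 12, and Erbb3 143 and 183, so Erbb3 went the other way. The median log2 ratio of that list was -0.14 over 12 tested genes. The oligodendrocyte genes Mog and Olig2, which mark the myelinating cells of the central nervous system, had 0 counts in both libraries, as did 5 of the 10 oligodendrocyte genes listed. Of 15 axon and neuron genes, 7 had at most 3 counts in each library. Markers of the muscle fibre were high and alike, with a summed TPM of 107100 and 93870 over 10 genes. The sequenced tissue thus held Schwann cell transcripts at low levels within muscle RNA, and in bulk RNA fewer Schwann cells and less RNA per cell cannot be told apart.

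Mbp encodes myelin basic protein, which holds the inner faces of the myelin membrane together. It lies at chr18:82475146-82585637 on the plus strand (ENSMUSG00000041607.17, build mm10). Replicate 1 held 1093 counts and replicate 2 held 241, and the levels were 20.1 and 3.20 TPM (mean 11.7 ± 12.0, SD, n = 2). The deposited credibility intervals, 19.8 to 23.8 TPM in replicate 1 and 3.40 to 4.94 in replicate 2, did not overlap. They follow a posterior mean that includes a prior, so the TPM value of replicate 2 lay just below its own interval. Mbp was 4.56-fold higher in replicate 1 (log2 ratio -2.19), where folds named without further remark come from TMM-scaled counts with a prior count of 2. The ratio of counts after the same TMM scaling but without a prior count, called the raw count ratio below, was 4.59. Its 95% exact binomial interval was 3.99 to 5.30. In TPM the ratio was 6.29, in part because the deposited effective length of the gene, an average over its transcripts, was 1935 bases in replicate 1 and 2341 in replicate 2. The transcripts assigned to Mbp therefore differed between the libraries as well as the number of reads.

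That difference was read by the annotated start sites of Mbp, among which its reads were divided by estimate. The gene has an upstream start, which gives the Golli transcripts known from neurons, immune cells and oligodendrocytes, and a start 79.3 kb downstream, which gives the classic myelin basic proteins. The grouping by start was chosen after the data were seen. The 11 transcripts of the downstream start held 989 counts in replicate 1 and 118 in replicate 2, an 8.48-fold ratio (95% interval 7.00 to 10.4). The 4 transcripts of the upstream start held 104 and 123 counts, a ratio of 0.855 (0.652 to 1.12), so counting error alone covered their difference. The upstream start accordingly took 4.31% of the TPM of Mbp in replicate 1 and 38.5% in replicate 2.

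The second deposited quantification, made directly from reads, gave the same picture for the downstream start, with 921 and 117 estimated reads and a ratio of 7.98 (6.58 to 9.76). For the upstream start it gave 271 and 143 estimated reads and a ratio of 1.92 (1.56 to 2.37), which is the opposite direction. The quantifications parted on Mbp-201, an upstream transcript with no exonic base of its own, to which the first assigned 8.34 and 59.2 counts and the second 175 and 68.6. Mbp-205, an upstream transcript that ends elsewhere and has 3955 exonic bases of its own, was steadier. It had 94.5 and 60.7 counts by the first quantification, a count ratio of 1.56 (1.12 to 2.19), and 93.8 and 71.2 estimated reads by the second. In TPM it had 0.72 and 0.40 by the first and 0.545 and 0.352 by the second. In both quantifications the reads assigned to the upstream start were thus far less apart between the animals than those of the downstream start. Mbp-205 ends at 82558703, past the downstream start at 82554470, so its own bases need not mark the upstream start. Use of the starts was therefore not settled. Within the downstream start, Mbp-211, which encodes 128 residues, was the most abundant transcript by the first quantification, at 64.1% of the gene in replicate 1 and 44.3% in replicate 2. The second put it at 34.8% and 17.8%, so the split among myelin basic protein isoforms was not settled by these tables.

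**Figure D1:**
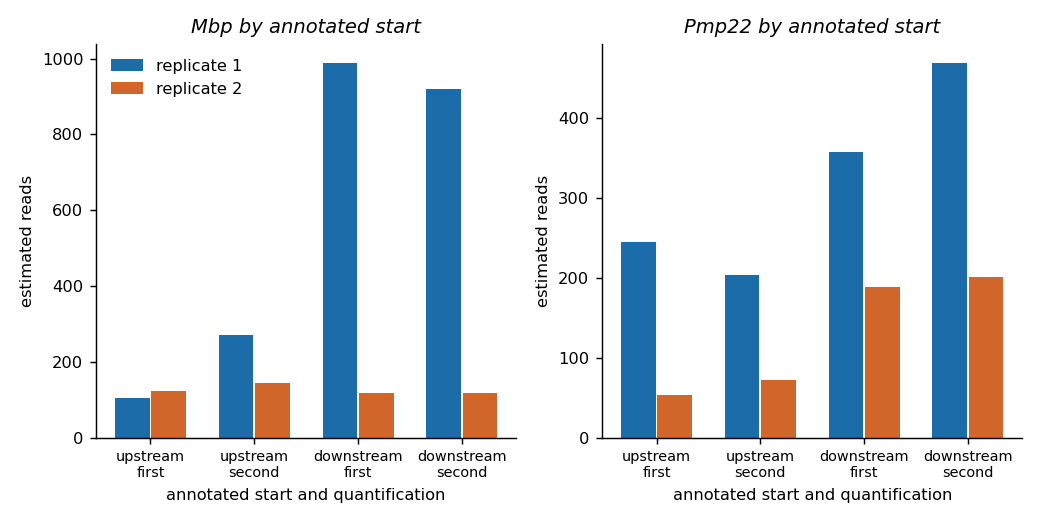
Estimated reads of Mbp (left) and Pmp22 (right) at their upstream and downstream annotated starts, in replicate 1 and replicate 2, by the first and the second deposited quantification. For Mbp the downstream start had 989 and 118 reads while the upstream start had 104 and 123 by the first quantification; further starts of Pmp22 and Mbp held at most 16.9 reads and are not drawn.

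Pmp22 encodes a small membrane protein of compact myelin that is sensitive to gene dosage in humans. It lies at chr11:63128982-63159547 on the plus strand (ENSMUSG00000018217.12). Replicate 1 held 610 counts and replicate 2 held 259, or 12.97 and 5.24 TPM (9.11 ± 5.47, SD, n = 2), with intervals of 12.0 to 14.4 and 4.65 to 6.30 TPM that did not overlap. The fold was 2.37 (log2 ratio -1.25; raw count ratio 2.38, 95% interval 2.06 to 2.77). The interval of Pmp22 lay wholly below the intervals of Mbp, Prx, Cadm4 and Drp2, so its ratio was smaller than theirs by more than counting error. Pmp22 is also transcribed in fibroblasts and other cells outside nerve.

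Pmp22 is known for alternative first exons, an upstream one used mainly by myelinating Schwann cells and a downstream one used in many tissues, both in front of the same coding sequence. Both main transcripts here encode 160 residues, and 169 exonic bases belong to the upstream transcript Pmp22-204 alone against 144 for Pmp22-201, whose start lies 2.53 kb downstream. Pmp22-204 had 245.5 counts in replicate 1 and 53.9 in replicate 2, a ratio of 4.59 (3.41 to 6.28). Pmp22-201 had 357.4 and 188.2 counts, a ratio of 1.92 (1.61 to 2.30). The intervals did not overlap, and the share of the upstream transcript was 39.2% and 18.6% of the gene. In the second quantification the ratios were closer, 2.86 (2.18 to 3.80) upstream and 2.37 (2.00 to 2.81) downstream, with intervals that overlapped and upstream shares of 28.2% and 23.9%. Both quantifications put the upstream start further apart than the downstream start, and only the first put them apart by more than counting error. These intervals leave out error in the division of reads among transcripts, so the starts were not told apart.

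Of the promoter windows of Pmp22, 2 are shown, at or near the starts of the transcripts compared above, and its further windows are not printed. The RefSeq start after the downstream window, 63131457, differs from the start of Pmp22-201, 63131512. Windows of Prx and Mag are shown because they belong to genes of the same set. RefSeq (GRCm38.p6) listed 14 promoter windows for 5 of the 8 genes, namely Pmp22, Prx, Mag, Cadm4 and Egr2. Each window printed runs 5′ to 3′ on the gene's strand over the 250 bases before an annotated start. Capitals mark a match to a searched motif.
Pmp22 upstream start, chr11:63128732-63128981, plus strand: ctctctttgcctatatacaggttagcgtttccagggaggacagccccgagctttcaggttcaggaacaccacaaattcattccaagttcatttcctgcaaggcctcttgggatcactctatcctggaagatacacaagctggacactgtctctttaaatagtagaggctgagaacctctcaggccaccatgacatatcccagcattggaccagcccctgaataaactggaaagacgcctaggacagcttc
Pmp22 downstream start, chr11:63131207-63131456, plus strand: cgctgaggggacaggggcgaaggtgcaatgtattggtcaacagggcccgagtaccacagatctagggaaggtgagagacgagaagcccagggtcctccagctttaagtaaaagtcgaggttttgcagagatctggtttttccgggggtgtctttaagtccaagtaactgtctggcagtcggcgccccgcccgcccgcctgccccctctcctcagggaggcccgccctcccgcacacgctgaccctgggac
Prx, chr7:27499074-27499323, plus strand: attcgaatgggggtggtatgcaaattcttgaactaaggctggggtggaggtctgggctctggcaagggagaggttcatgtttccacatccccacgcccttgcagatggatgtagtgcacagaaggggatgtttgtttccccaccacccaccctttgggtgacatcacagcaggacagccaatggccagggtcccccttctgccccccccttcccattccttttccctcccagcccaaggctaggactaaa
Mag, chr7:30914923-30915172, minus strand: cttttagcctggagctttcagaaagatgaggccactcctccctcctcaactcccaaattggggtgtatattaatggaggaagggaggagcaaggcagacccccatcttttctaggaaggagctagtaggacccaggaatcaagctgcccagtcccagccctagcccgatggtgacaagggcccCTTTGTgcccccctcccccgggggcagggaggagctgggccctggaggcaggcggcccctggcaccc
The motifs searched on both strands were ACAAAG and AACAAT for SOX factors, GCGNGGGCG for EGR factors and TATAAA for the TATA box. The SOX motifs overlap in part of their letters. Of 32817 RefSeq windows of the same length, 16.5% held ACAAAG, 9.43% AACAAT, 4.70% GCGNGGGCG and 12.4% TATAAA. Among the windows of these genes the sole match was ACAAAG on the opposite strand of Mag, 67 bases before this start. Another window of Mag held the same site. A match of this kind is a description of letters, and its absence says only that these letters are not in the window. The G and C content was 48.8% in the upstream window of Pmp22, 61.2% in its downstream window and 75.2% in that of Cadm4.

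Prx encodes periaxin, a scaffold protein that Schwann cells place on the outer, basal side of the sheath. It lies at chr7:27499324-27520214 on the plus strand (ENSMUSG00000053198.13) and overlaps an antisense gene; the kit keeps strand, but whether counting used it is not stated in the labels. Replicate 1 held 608 counts and replicate 2 held 142, or 4.52 and 0.94 TPM (2.73 ± 2.53, SD, n = 2). The intervals were 4.10 to 4.83 and 0.791 to 1.11 TPM and did not overlap, and Prx was 4.28-fold higher in replicate 1 (log2 ratio -2.10; raw count ratio 4.33, 3.60 to 5.24). Prx makes a long and a short protein. Prx-203, which encodes the short form of 148 residues, took 18.5% and 24.5% of the gene by the first quantification and 19.4% and 26.0% by the second. The remaining reads went to transcripts of the long form, which the quantifications divided differently between a start shared with Prx-203 and one 8.48 kb downstream: 16.8% and 36.0% at the downstream start by the first, 72.3% and 74.0% by the second. Use of these starts is therefore not described further.

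Drp2 encodes dystrophin-related protein 2, which periaxin binds and which links it to dystroglycan under the Schwann cell membrane. It lies at chrX:134404551-134456573 on the plus strand (ENSMUSG00000000223.13). Replicate 1 held 543 counts and replicate 2 held 149, or 3.03 and 0.72 TPM (1.88 ± 1.63, SD, n = 2), with intervals of 2.81 to 3.50 and 0.677 to 1.03 TPM. Drp2 was 3.65-fold higher in replicate 1 (log2 ratio -1.87; raw count ratio 3.69, 3.07 to 4.45). Its counting interval overlapped that of Prx, so these partner genes could not be told apart in their ratio. Drp2-206, which encodes 957 residues, held 78.4% and 79.3% of the gene, and 69.0% and 66.4% in the second quantification. The next transcript, Drp2-202, held 20.2% and 20.7% by the first quantification and 29.3% and 15.7% by the second, so the split beyond Drp2-206 depended on the quantification.

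Other genes of the periaxin and dystroglycan complex were mostly alike in the libraries. Of 12 listed, 10 of them outside the set, all had at least 50 counts, and the median log2 ratio over the 12 was -0.08. Of the 12, 3 were at least 2-fold higher in replicate 1, against 0.701% of tested genes, and none in replicate 2. The 3 were Prx and Drp2, which were chosen for this difference, and Itgb4, which is outside the set. Itgb4, the integrin chain found on the outer face of myelinating Schwann cells, on epithelia and on perineurial cells, had 275 and 111 counts (log2 ratio -1.31). Dag1, which encodes dystroglycan and is abundant in muscle fibres, had 9535 and 10547 counts (log2 ratio 0.13). Lamb2 and Itgb1, a laminin and an integrin chain of many basement membranes, had log2 ratios of -0.12 and -0.03. The dystrophin paralogs Dmd and Utrn had log2 ratios of 0.08 and -0.51.

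Mag encodes myelin-associated glycoprotein, an adhesion receptor on the innermost wrap that faces the axon. It lies at chr7:30899176-30914873 on the minus strand (ENSMUSG00000036634.15). It had 20 counts in replicate 1 and 1 in replicate 2, or 0.48 and 0.01 TPM (0.245 ± 0.332, SD, n = 2). Its credibility intervals, 0.446 to 1.56 and 0.0990 to 0.751 TPM, overlapped. The raw count ratio was 20.2, with an interval of 3.24 to 838, and the fold with a prior count was 7.39 (log2 ratio -2.89), so its size is poorly known. Its transcripts could not be compared on 1 count in replicate 2.

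Cadm4 encodes a cell adhesion molecule of the Schwann cell that binds partners on the axon along the internode. It lies at chr7:24482023-24504539 on the plus strand (ENSMUSG00000054793.8). Replicate 1 held 117 counts and replicate 2 held 24, or 2.02 and 0.36 TPM (1.19 ± 1.17, SD, n = 2), with intervals of 1.70 to 2.67 and 0.266 to 0.846 TPM that did not overlap. Cadm4 was 4.63-fold higher in replicate 1 (log2 ratio -2.21; raw count ratio 4.93, 3.16 to 8.00). Of its related genes, Cadm1 had 114 and 136 counts (log2 ratio 0.24) and Cadm3 had 239 and 200 (-0.27). Cadm2, under the count minimum, had 43 and 13 (-1.60), and its counting interval, 1.77 to 6.78, overlapped that of Cadm4. Among 11 genes of axon and Schwann cell adhesion, Cadm4 was the sole gene of 3 with 50 counts that was at least 2-fold apart. With a minimum of 10 counts, 5 of 10 were at least 2-fold higher in replicate 1, against 2.38% of all genes. They were Mag and Cadm4, which were chosen for this difference, and Cadm2, Nfasc and Gldn. Gldn, which Schwann cells secrete at the node of Ranvier, was below 2-fold in the second quantification (log2 ratio -0.86).

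Sox10, the lineage factor, lies at chr15:79154908-79165240 on the minus strand (ENSMUSG00000033006.10). It had 50 counts in replicate 1 and 7 in replicate 2, or 0.72 and 0.08 TPM (0.400 ± 0.453, SD, n = 2). The credibility intervals, 0.596 to 1.23 and 0.0757 to 0.354 TPM, did not overlap. The fold was 5.83 with a prior count (log2 ratio -2.55) and the raw count ratio 7.22 (3.26 to 18.9). Sox10 was thus higher in replicate 1 by more than counting error, although both levels were under 1 TPM.

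Egr2, the myelination factor, lies at chr10:67535475-67542188 on the plus strand (ENSMUSG00000037868.15). It had 17 and 6 counts, or 0.26 and 0.07 TPM (0.165 ± 0.134, SD, n = 2). The intervals, 0.328 to 1.18 and 0.135 to 0.737 TPM, overlapped and lay above the TPM values. The fold was 2.40 (log2 ratio -1.26) and the raw count ratio 2.87 (1.08 to 8.88), so a difference in Egr2 was barely outside counting error. Its paralog Egr1, an immediate early gene of many cells, went the other way, with 54 and 179 counts (3.20-fold, log2 ratio 1.68). Egr1 is in the paralog list and was the sole listed gene with at least 10 counts that was 2-fold higher in replicate 2.

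**Figure D2:**
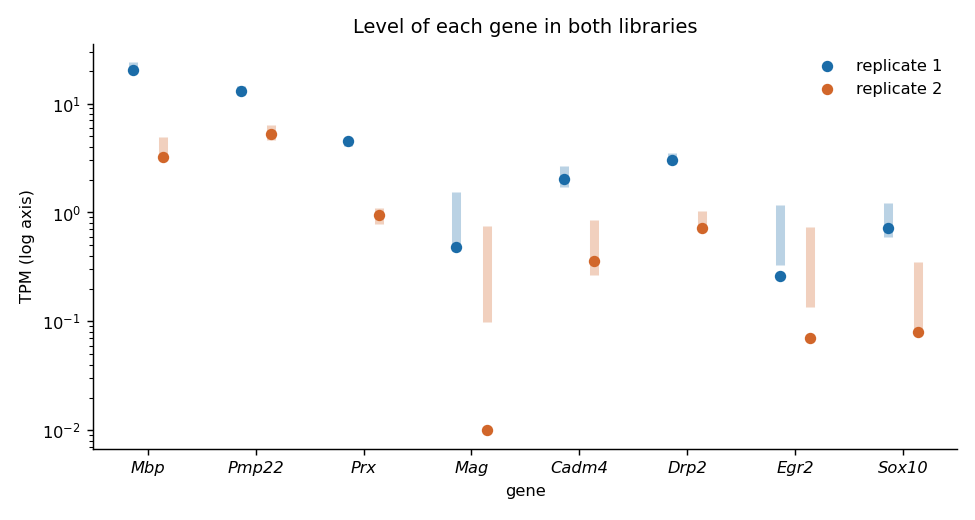
TPM of the 8 genes in replicate 1 and replicate 2 on a log axis; points are the deposited TPM values and pale bars the deposited credibility intervals. All 8 points of replicate 1 lie above those of replicate 2, and the bars of Mag and Egr2 overlap.

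Across the set, all 8 genes were higher in replicate 1, and 6 of the 8 had credibility intervals that did not overlap (all but Mag and Egr2). Among the 5 genes with at least 50 counts all 5 had intervals that did not overlap, where 22.4% of all tested genes had. All 5 passed 2-fold towards replicate 1, as did 0.701% of tested genes; 0.683% passed it towards replicate 2. None of the 8 genes shared reads with others, and over tested genes of that kind the share towards replicate 1 was 0.561%. At a minimum of 10 counts, 8 of 8 passed 2-fold towards replicate 1, against 2.38% of all genes, and 1.71% of all genes passed it towards replicate 2. Since the genes were chosen on this difference, these counts describe the choice. Their median log2 ratio was -2.10 over the 5 genes and -2.14 over all 8.

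**Figure D3:**
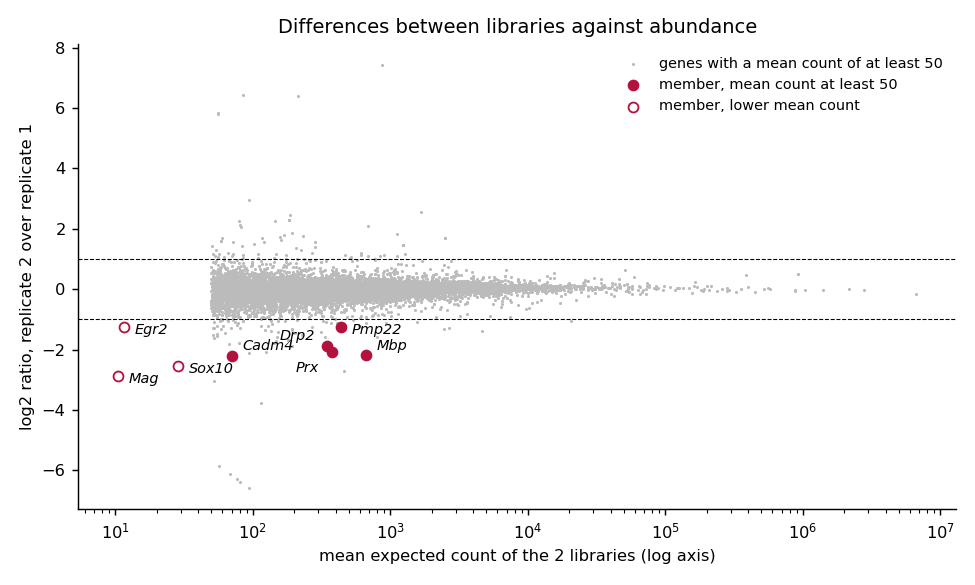
Log2 ratio of replicate 2 over replicate 1 against the mean expected count (log axis) for 11125 genes with a mean count of at least 50 (grey) and for the 8 genes (red; open circles have a lower mean count). Dashed lines mark 2-fold; the 8 genes all lie below the lower line, from -1.25 for Pmp22 to -2.89 for Mag.

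The order of levels by mean TPM was Mbp, Pmp22, Prx, Drp2, Cadm4, Sox10, Mag and Egr2. Of neighbours in this order, only Pmp22 and Prx had values that did not overlap between the libraries; every other neighbouring pair did. In replicate 1 Mbp was the highest of the set and ranked 2584 among 22015 nuclear protein-coding genes. In replicate 2 Pmp22 was the highest, at rank 5922, while Mbp ranked 7284. Mbp made up 46.6% of the summed TPM of the 6 myelin genes in replicate 1 and 30.6% in replicate 2, and Pmp22 made up 30.1% and 50.1%. The shares of Drp2, 7.02% and 6.88%, and of Prx, 10.5% and 8.98%, changed little. At 1 TPM in both libraries 2 of the 8 genes were detected, Mbp and Pmp22.

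The 6 myelin genes were then set beside the 2 lineage factors. Their summed TPM was 43.1 in replicate 1 and 10.5 in replicate 2 (26.8 ± 23.1, SD, n = 2), and that of Sox10 and Egr2 was 0.98 and 0.15. The myelin genes were thus 44.0 times the factors in replicate 1 and 69.8 times in replicate 2 (56.9 ± 18.2), and 44.6 and 62.8 times by summed counts. With posterior mean TPM, which adds a prior to low values, the order of the animals turned, at 28.4 times in replicate 1 and 20.5 in replicate 2, so no direction is read from this ratio. The median log2 ratio was -2.10 over the 5 myelin genes with at least 50 counts and -1.90 over the factors, for which no count minimum was used. The factors' own ratios, -2.55 and -1.26, spanned most of the range of the myelin genes. With 67 and 13 counts in all for the factors, a difference between factors and myelin genes was not detectable at this depth.

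Other myelin genes, from a list of 18 chosen with earlier results known, lay on the same side. Of 5 with at least 50 counts, 4 passed 2-fold towards replicate 1 and none towards replicate 2, and the median log2 ratio was -1.62. Among all tested genes 0.701% passed 2-fold towards replicate 1. Cnp, an enzyme of non-compact myelin that also occurs outside glia, had 226 and 68 counts (log2 ratio -1.72). Mal, a proteolipid of myelin and epithelia, had 80 and 25 (-1.62). The exception was Plekhb1, at 1831 and 1875 counts (0.02), whose 39.7 and 35.5 TPM stood above every gene of the set. With a minimum of 10 counts, 14 of 15 were at least 2-fold higher in replicate 1, against 2.38% of all genes. Among the 14, Pmp2, the fatty acid binding protein of peripheral myelin, had 23 counts and 0, on reads that it shared in part with other genes. Gjc3, also among the 14, was like Gldn below 2-fold in the second quantification (log2 ratio -0.96).

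Genes listed for the Schwann lineage and for immature and non-myelinating cells were mostly less than 2-fold apart. Of 21 listed, 12 had at least 50 counts, with a median log2 ratio of -0.14. Of these 12, 8 were lower in replicate 2, and 1 was at least 2-fold higher in replicate 1, against 0.701% of tested genes. With a minimum of 10 counts, 2 of 17 were at least 2-fold higher in replicate 1, against 2.38% of all genes. Scn7a had 228 and 141 counts (log2 ratio -0.70) and L1cam 130 and 86 (-0.60), while Erbb3 had 143 and 183 (0.34). The 3 with the highest TPM, Jun, Zeb2 and Yy1, are transcription factors that many cells express, and had log2 ratios of 0.21, 0.13 and -0.15. Ngfr, a receptor of immature and non-myelinating Schwann cells, had 12 and 11 counts, and Pou3f1, a factor of the promyelinating stage, had 14 and 12. The count ratio of Ngfr was 1.10 with an interval of 0.446 to 2.76, and that of Pou3f1 1.18 with 0.507 to 2.79. Those intervals lie below the whole interval of Mbp but overlap the intervals of Pmp22 and Egr2, and they rest on few counts. S100b, in the same list and under the count minimum by mean, had a count ratio of 2.80 (1.70 to 4.80).

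Genes of inherited neuropathy that many cells express did not follow the myelin genes. Of 9, all with at least 50 counts, Ndrg1 alone was 2-fold higher in replicate 1, against 0.701% of tested genes. It had 715 and 356 counts (log2 ratio -1.02), and the median of the 9 was -0.06. Ndrg1 is abundant in Schwann cells and is also a stress-responsive gene of other tissues. Mfn2, Sbf1 and Fgd4, the highest of this list, had log2 ratios of 0.10, 0.06 and -0.05. Genes of cholesterol and fatty acid synthesis, on which myelin growth draws heavily, had none of 17 tested genes 2-fold apart and a median of -0.06. The furthest towards replicate 1 was Scd2, a desaturase, with 493 and 261 counts (log2 ratio -0.93), which passed 2-fold under spike-in scaling (-1.06). The highest in level were Fdft1 (0.21), Srebf1 (-0.02) and Fdps (0.05). Among close paralogs of the 8 genes, 8 had at least 50 counts, with a median of -0.31. Of these paralogs 1 passed 2-fold towards replicate 1 and 1 towards replicate 2, against 0.701% and 0.683% of tested genes. Sox9 was at least 2-fold higher in replicate 1 (107 and 49 counts, log2 ratio -1.11), although not in the second quantification (-0.92), and Egr1 was in replicate 2, while Emp1, a paralog of Pmp22 in epithelia and fibroblasts, had a log2 ratio of -0.34.

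Markers of other cells that a nerve or muscle sample holds were read in the same way. Perineurial and endoneurial fibroblast genes had a median log2 ratio of -0.19 over 6 tested genes, all 6 lower in replicate 2. Of the 6, 2 were at least 2-fold higher in replicate 1, against 0.701% of tested genes. They were Itgb4 and, in the first quantification only, Sox9. The highest of this list, Tjp1, Slc2a1 and Cldn5, had log2 ratios of -0.05, -0.08 and -0.25. Fibroblast genes had a median of -0.27 over 10 genes, 9 of them lower in replicate 2 and none 2-fold apart, with Gsn, Dcn and Col1a1 at -0.11, -0.28 and -0.25. Endothelial genes had a median of -0.18 over 9, none 2-fold apart, with Pecam1, Cdh5 and Egfl7 at -0.11, -0.18 and 0.03. Muscle fibre genes had a median of -0.02 over 10, with Acta1, Ckm and Tnnt3 at -0.06, -0.003 and 0.06. Macrophage genes had a median of -0.02 over 6, with Lyz2, Csf1r and C1qb at 0.12, 0.08 and -0.41, and with Spp1, which encodes osteopontin, at 95 and 10 counts (-3.03). Spp1 was the 1 gene of these 6 that was at least 2-fold higher in replicate 1, against 0.701% of tested genes. The summed TPM of the fibroblast list was 315 and 242, and that of the perineurial list 21.8 and 14.9. The part of these cells in the differences of the 8 genes was not tested.

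Axon and neuron genes gave little to compare. Only Map1b and Stmn2 had at least 50 counts. Map1b, a microtubule protein that many cells express, had 900 and 673 counts (log2 ratio -0.43). Stmn2, a neuronal growth protein, had 75 and 85 (0.16), and Uchl1, an abundant neuronal hydrolase, had 34 and 52 (0.57). The sum over the list was 7.61 and 7.30 TPM. Oligodendrocyte genes likewise had only Tspan2 and Aspa with at least 50 counts, both expressed outside the brain, at -0.30 and 0.19, while Mobp had 1 and 2 counts.

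**Figure D4:**
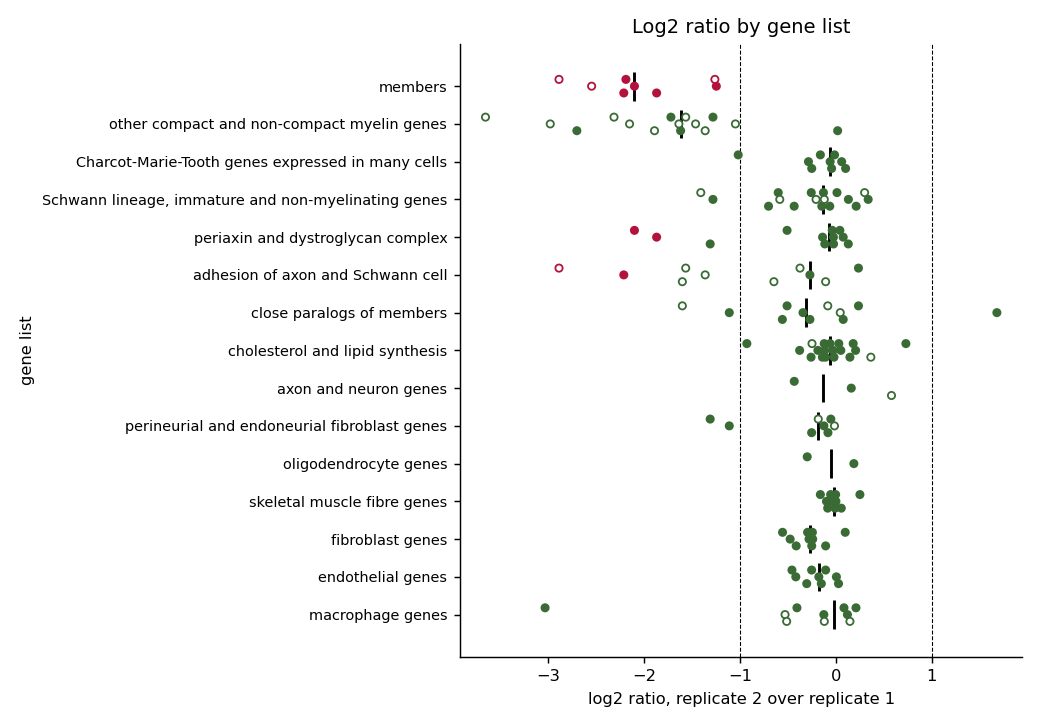
Log2 ratio of replicate 2 over replicate 1 for the 8 genes and for each of 14 gene lists; each point is a gene with a mean count of at least 10, filled from 50 counts, red for the 8 genes, and the black bar is the median of the filled points. Dashed lines mark 2-fold; the other myelin genes lie left of -1 except Plekhb1, at 0.02, while the medians of the remaining lists lie between -0.31 and -0.02.

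Over all 14 lists, 162 different genes outside the set were read and 100 had at least 50 counts. Of these 8 were at least 2-fold higher in replicate 1, among them Cnp, Mal, Ndrg1, Itgb4, Sox9 and Spp1, and 1 in replicate 2. Over all tested genes the shares were 0.701% and 0.683%. With a minimum of 10 counts, 20 of 130 were higher in replicate 1 and 1 in replicate 2, against 2.38% and 1.71% of all genes.

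The genes outside the set whose log2 ratio was nearest to the median of the set, -2.10, were also read, over the same 2 libraries. They were, in order, Plekha4 with 204 and 47 counts (-2.09), Kif1a with 153 and 34 (-2.12), Sox18 with 302 and 81 (-1.89), Kcna1 with 106 and 29 (-1.82), Reln with 222 and 64 (-1.78), then Cnp, Sox7 (-1.70), Tbx3 (-1.69), Mal and Kank4 (-1.57). Kif1a encodes an axonal transport motor and Kcna1 a potassium channel of axons beside the node, while Sox18 and Sox7 encode transcription factors of endothelial cells. A ratio over 2 libraries is a single number per gene, so likeness in it groups genes loosely.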

How the data were processed

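Per the labels, total RNA of gastrocnemius from 2 animals of 1 group was sequenced, 1 library each. For each library the authors deposited tables of genes and of transcripts in the layout of RSEM, and a further transcript table in the layout of kallisto, called the second quantification here. The deposited descriptions name genome mm10 with annotation GENCODE M21; the sources used here give no programs or versions. Deposited expected counts are estimates of the reads from each gene or transcript before any normalization. Deposited TPM values are scaled to a fixed total over all features, and the deposited percent values give the share of a transcript in its gene. The deposited bounds of TPM, read as a score, are credibility bounds of a level that is not stated.

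Over all genes, expected counts were rounded and scaled by TMM in edgeR 4.0.16 (R 4.3.3), and log2 ratios used a prior count of 2. Differences were described at a line of 2-fold, for genes whose expected counts averaged 50 or more. Each list count at this line stands against 0.701% of tested genes towards replicate 1 and 0.683% towards replicate 2. Count ratios, scaled by TMM without a prior count, have 95% exact binomial intervals. With 1 library per animal and 1 group no p-value exists. Transcript starts within 500 bases of each other were grouped. Reads were taken as shared between genes where the posterior SD of a count passed 5% of its mean. Names and positions came from GENCODE M21 and promoter windows from RefSeq (GRCm38.p6). The scaling and the log2 ratios were tested on simulated counts.

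The 8 genes, the 14 lists and the rule for named genes were chosen with earlier results of these data known, and the start groups after seeing the data. Named are the 8 genes, the 3 highest by mean TPM of each list and its genes with at least 50 counts and a 2-fold difference, the markers S100b, Pmp2, Ngfr, Pou3f1, Mog and Olig2, and the 10 protein-coding genes nearest in log2 ratio. Some genes that the rule takes are counted in their lists but not reported here. Cadm2, Nfasc, Gldn, Gjc3, Scd2, Scn7a, L1cam and Erbb3 were named after their values were seen. Alternatives were scaling by DESeq2 1.42.0 or by spike-ins, a prior count of 0.5, a minimum of 10 counts, other TPM thresholds, posterior mean TPM, TPM over nuclear protein-coding genes alone, the second quantification, and each animal left out. Python 3.11.15 with pandas 2.3.3, SciPy 1.17.1 and matplotlib 3.10.9 handled tables and figures. Allele of origin and signal tracks were not analysed here.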

Additional observations from a re-analysis of the deposited data

How the results depend on the processing

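All 32 log2 ratios of the 8 genes under 4 alternatives (scaling by DESeq2 size factors or by spike-ins, a smaller prior count, the second quantification) were negative and inside the counting interval. The median of the myelin genes ranged from -2.23 to -2.07 and that of the lineage factors from -2.11 to -1.89. A minimum of 10 counts raised the number of the 8 genes at least 2-fold higher in replicate 1 from 5 to 8, that of all genes from 78 to 336 (and from 76 to 242 in replicate 2), and that of the list genes from 8 to 20; it admits genes with fewer counts. Spike-in scaling, which moved the median of all genes to -0.12, gave 128 genes higher in replicate 1, and the second quantification gave 38 higher in replicate 2; the cause was not tested. The summed TPM of the 8 genes, 27.4, was 58.0 when rescaled to nuclear protein-coding genes, and 10.6 to 44.1 when either animal was left out. The ratio of myelin genes to factors, 56.9, was 24.5 with posterior mean TPM, where the order of the animals turned (28.4 and 20.5), and 44.0 to 69.8 when either animal was left out. Sox9 and, under 50 counts, Gldn and Gjc3 lost their 2-fold call in the second quantification, and Scd2 gained it under spike-in scaling. At 0.5 TPM, 4 genes were detected in place of 2. The ratio of the upstream start of Mbp changed direction, from 0.855 to 1.92, in the second quantification. Depth limits Mag, Egr2 and Sox10, with 1 to 7 counts in replicate 2. No paired analysis was possible because both libraries belong to 1 group.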
